A study of Mus musculus with 8 samples.

Results

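The genes described here encode collagens, laminin chains, integrin subunits and a set of matricellular and crosslinking proteins in 4T1 cells, a mouse mammary tumor line used as a model of triple-negative breast cancer. A gene was a member when its symbol was that of a collagen alpha chain, a laminin alpha, beta or gamma chain, a numbered integrin alpha subunit, *Itgav* or a numbered integrin beta subunit, or was *Postn*, *Sparc*, *Thbs1*, *Thbs2*, *Tnc*, *Spp1*, *Fbn1*, *Lox* or *Loxl2*. Of 28712 genes listed, 82 were members, 57 had a mean normalized read count of at least 10 in one or both tables, and 56 reached it in both tables and were tested. *Loxl2* reached 10 in one table only, with an authors' mean of 10.5 in one and 8.87 in the other. The other 25 members lay under 10 in both tables or were absent from one, among them *Col10a1*, *Col11a1*, *Col17a1*, *Itga4*, *Itga9*, *Itga11*, *Lama1*, *Lama2* and *Lamc3*. Members were picked by gene symbol, though with earlier results of these data known.

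The study sequenced RNA of wild-type 4T1 cells in 4 groups of 2 libraries. Cells were grown at 1% O2 according to the labels and, once confluent, received 0.5 μg/ml of sdAb#07.81, a single-domain antibody against the nuclear protein NUPR1, for 24 h or 48 h, or 0.5 μg/ml of the control antibody sdAb-Con for 48 h. The fourth group, Con, was not analysed here. No source used here says whether the 2 libraries of a group came from separate cultures, so p-values measure the spread between libraries, which may be technical. There was no sdAb-Con group at 24 h, so the time in culture and the length of exposure to sdAb#07.81 cannot be told apart in the comparison of 48 h with 24 h.

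The extracellular matrix is the protein network that cells secrete around themselves. Fibrillar collagens form the fibers of connective tissue, and collagen IV and the laminins assemble into the basement membrane on which epithelial cells sit. Integrins are receptors made of an alpha and a beta subunit that bind these proteins and connect them to the actin cytoskeleton. Matricellular proteins such as thrombospondin 1, periostin, tenascin C and osteopontin act on cells rather than build the scaffold, and *Lox* and *Loxl2* crosslink collagen and elastin.

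The 6 libraries held between 15250566 and 18242862 reads on genes, and the correlation of log2 values between the libraries of a group lay between 0.987 and 0.992. The deposited tables give only the mean over 4 libraries, and the whole reads of each library were worked out from the digits of that mean. The libraries of a group carry no number of their own, so library 1 is the one with more reads. *Nupr1*, whose protein is the target, had 1556 and 2136 normalized read counts in sdAb#07.81 (24 h), 2919 and 2919 in sdAb#07.81 (48 h), and 3575 and 2998 in sdAb-Con (48 h). Its mRNA does not check the labels, since the antibody binds the protein. *Krt8* and *Krt18*, keratins of simple epithelium, had at least 10076 normalized counts in each library, and *Epcam* had 2799 to 3360. Of the 6 epithelial markers tested, *Krt14* was the one called between the 48 h groups, at 234 and 261 counts with sdAb#07.81 and 404 and 312 with sdAb-Con. Against 24 h, where *Krt14* had 652 and 589 counts and *Cdh1*, encoding E-cadherin, 11321 and 11362, *Krt14* was lower (log2 fold change -1.32, SE 0.156) and *Cdh1* higher (0.63, SE 0.111) in sdAb#07.81 (48 h), and the part of these epithelial markers in the integrin values was not tested. The summed level of the immune markers lay between 243 and 1044, nearly all of it from *Cd68*, while *Ptprc*, which defines leukocytes, stayed at or below 4.37. The endothelial markers summed to 1.91 to 13.8, with *Cdh5* at 0 in 4 of the 6 libraries. The megakaryocyte markers summed to 41.3 to 131, nearly all from *Itga2b*. That integrin alpha subunit of platelets is no member by the rule, and it was higher at 48 h, with 39.5 and 60.2 counts at 24 h, 129 and 115 in sdAb#07.81 (48 h), and 125 and 131 in sdAb-Con (48 h) (log2 fold change 1.30 between the sdAb#07.81 groups, SE 0.239).

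Together the 82 members took 0.991% to 1.16% of the reads of a library, and members differed widely in level. Per kilobase of transcript, the integrin chain *Itgb1*, which pairs with many alpha subunits, stood at 6928 normalized counts in sdAb#07.81 (24 h), 6664 in sdAb#07.81 (48 h) and 6954 in sdAb-Con (48 h). Its partner *Itga3*, a receptor subunit for laminin, came next among integrins with 4094, 2859 and 2719. *Spp1*, which encodes the secreted integrin ligand osteopontin, reached 9034, 4940 and 5798 on the same scale. Among laminins, *Lamb1* led with 3065, 2584 and 2825 per kilobase. The abundant chains of collagen IV lay above those of type I collagen, while *Col4a3*, *Col4a4* and *Col4a6* did not. *Col4a1* stood at 1344, 1653 and 1650 per kilobase, whereas *Col1a1*, the main chain of type I collagen, stood at 19.8, 30.9 and 29.9.

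Other members of the classes lay between these levels. The fibrillar collagens were led by *Col5a1*, which helps to set the width of collagen fibers, with 1567 and 1811 normalized counts in sdAb#07.81 (24 h), 2320 and 1800 in sdAb#07.81 (48 h), and 1796 and 1811 in sdAb-Con (48 h). Its 48 h groups overlapped. *Itga6*, the laminin receptor subunit that pairs with *Itgb1* or *Itgb4*, and *Itgav*, which binds RGD-containing matrix proteins, came after *Itga3* with 1563, 1088 and 971 and with 915, 687 and 647 normalized counts per kilobase. In contrast, *Itga10*, *Lama4*, *Col4a4* and *Col27a1* stayed under 25 normalized counts in each library, where a few reads decide a difference.

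*Col4a1* and *Col4a2* encode the chains of the main collagen IV molecule, and their genes lie head to head on opposite strands. In GRCm38.p6 their RefSeq starts are 21 bases apart on chromosome 8, so the windows from 250 bases before to 50 bases after each start share 78 bases. They are shown because both starts lie in that common stretch and the reads of the 2 genes kept a narrow ratio. The few bases where the genes overlap cannot be told apart by counting without strand. The window of *Col4a1* lies on the minus strand at chr8:11312777-11313076, that of *Col4a2* on the plus strand at chr8:11312555-11312854, and capitals mark the shared 78 bases.
Col4a1: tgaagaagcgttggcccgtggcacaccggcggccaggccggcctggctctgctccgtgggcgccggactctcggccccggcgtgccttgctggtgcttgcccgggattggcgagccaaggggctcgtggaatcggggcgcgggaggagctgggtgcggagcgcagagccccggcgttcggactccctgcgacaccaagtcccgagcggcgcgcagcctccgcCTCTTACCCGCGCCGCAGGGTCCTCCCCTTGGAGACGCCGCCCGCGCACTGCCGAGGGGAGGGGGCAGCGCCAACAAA
Col4a2: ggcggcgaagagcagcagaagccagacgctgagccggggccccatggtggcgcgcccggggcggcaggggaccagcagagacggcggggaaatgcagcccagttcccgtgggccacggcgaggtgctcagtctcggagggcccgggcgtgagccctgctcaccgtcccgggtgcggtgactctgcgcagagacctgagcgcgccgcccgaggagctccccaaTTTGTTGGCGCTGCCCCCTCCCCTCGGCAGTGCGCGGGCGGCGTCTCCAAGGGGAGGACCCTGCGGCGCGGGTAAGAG

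*Col4a1* had 7770 and 10007 normalized read counts in sdAb#07.81 (24 h), 11573 and 10298 in sdAb#07.81 (48 h), and 11315 and 10513 in sdAb-Con (48 h). *Col4a2* had 5347 and 6600, then 7652 and 6595, and then 6376 and 7051 in the same order. The reads of *Col4a2* came to between 0.563 and 0.688 of those of *Col4a1* in each of the 6 libraries. Neither gene was called in any of the 3 comparisons, although the difference of *Col4a1* from 24 h, 0.31 on the log2 scale in both 48 h groups, lay near the threshold and passed it under several other settings. With the trend of length, GC content and mean count taken out, *Col4a1* was called in both comparisons with 24 h, and *Col4a2* in that of sdAb#07.81 (48 h). Their log2 fold changes between the 48 h groups were 0.00 (SE 0.127) and 0.08 (SE 0.124). The other collagen IV pair, *Col4a5* and *Col4a6* on chromosome X, starts 1343 bases apart in the same build, its windows share no base, and the reads of *Col4a6* came to between 0.0181 and 0.0298 of those of *Col4a5*.

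One library held little or no RNA of 7 matrix genes that fibroblasts are known to express and the other 5 libraries held, and this bears on each comparison with sdAb#07.81 (24 h). In sdAb#07.81 (24 h) library 2, 7 of the 56 tested members lay more than 3-fold below the lowest of the other 5 libraries, namely *Col1a1*, *Col1a2*, *Col3a1*, *Col5a2*, *Col6a3*, *Lox* and *Thbs2*. In the other 5 libraries no member did. Over all 13612 tested genes, 44 did so in that library, 35 in sdAb#07.81 (24 h) library 1, and 3 to 9 in each of the 48 h libraries. This measure was chosen after the values were seen.

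*Col3a1*, the chain of type III collagen, had 159 reads in sdAb#07.81 (24 h) library 1 and 0 in library 2, where a count of 0 allows up to 3 by counting error alone. The 48 h libraries held 125 and 83 reads in sdAb#07.81 and 91 and 81 in sdAb-Con. *Thbs2*, encoding thrombospondin 2, had 116 and 0 reads at 24 h, 72 and 47 in sdAb#07.81 (48 h), and 69 and 45 in sdAb-Con (48 h). Both genes were thus read in 5 libraries and not in 1. After normalization the 48 h groups overlapped for *Thbs2* (75.1 and 51.4 against 66.1 and 46.9) and not for *Col3a1* (130.3 and 90.8 against 87.2 and 84.4), and neither gene was called between them. *Lox* had 39 and 0 reads at 24 h against 28 to 44 at 48 h. *Col1a2*, the second chain of type I collagen, had 176 and 8 reads at 24 h against 105 to 151 at 48 h, and *Col1a1* had 214 and 40 against 139 to 206. The summed normalized level of the 7 genes was 728 and 48.8 at 24 h, 693 and 489 in sdAb#07.81 (48 h), and 575 and 509 in sdAb-Con (48 h). The 7 genes were picked for being low in sdAb#07.81 (24 h) library 2, so the low sum there follows from that choice.

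Of the 6 fibroblast markers listed, *Dcn*, *Lum* and *Thy1* were also low in sdAb#07.81 (24 h) library 2. *Dcn*, encoding the small proteoglycan decorin, had 47.8 and 2.87 normalized counts in the 24 h libraries and 30.6 to 44.1 in the 48 h libraries, and *Lum*, encoding lumican, had 34.9 and 0 against 16.3 to 30.2. *Thy1* had 22 and 1.91 at 24 h and 5.21 to 13.1 at 48 h. *Pdgfra* went the other way, with 957 and 1247 at 24 h and 609 to 655 at 48 h. *Pdgfrb* did not follow, with 4.59 and 2.87 at 24 h and 0 to 5.21 at 48 h. *Fap* was low in both 24 h libraries, with 4.59 and 1.91 against 4.17 to 14.6 at 48 h. Summed over the 5 fibroblast markers other than *Pdgfra*, the level was 114 and 9.56 at 24 h, 92.8 and 76.6 in sdAb#07.81 (48 h), and 81.4 and 75.1 in sdAb-Con (48 h). With *Pdgfra* the 6 markers summed to 1071 and 1256, 748 and 703, and 691 and 704. In bulk RNA, fewer cells of a type and less RNA per cell cannot be told apart, and whether fibroblasts take part in these values was not tested.

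**Figure D1:**
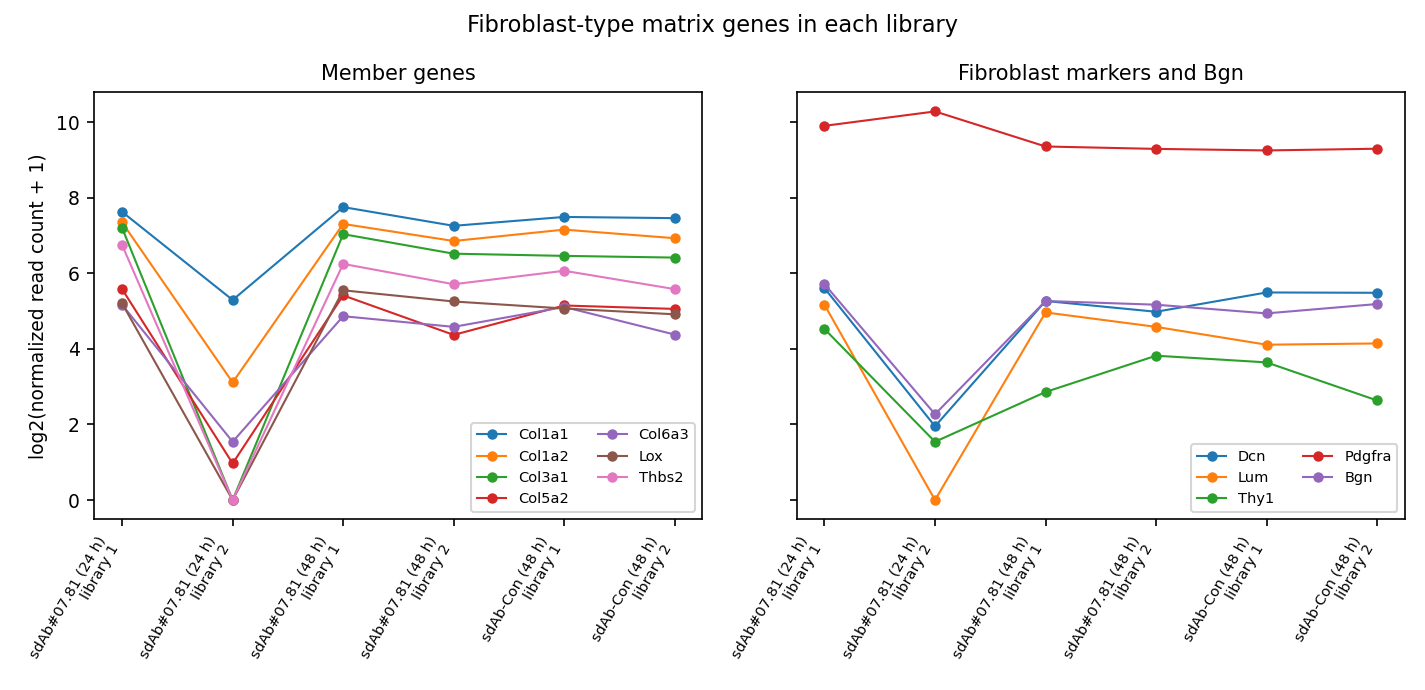
Normalized read counts on a log2 scale (with 1 added) of 7 member genes (left) and of 4 fibroblast markers and *Bgn* (right) in the 6 libraries, 1 point a library, with lines that only join the points of a gene. The fibroblast markers *Pdgfrb* and *Fap* are not drawn, and *Bgn* was listed with other matrix genes. The second sdAb#07.81 (24 h) library lies at or near 0 for *Col3a1*, *Lox*, *Thbs2* and *Lum*, while *Pdgfra*, at 1247 normalized counts there, does not follow.

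The comparison of sdAb#07.81 (48 h) with sdAb-Con (48 h) asks what the anti-NUPR1 antibody changed at equal time and dose. Few members moved. *Thbs1*, which encodes thrombospondin 1, an inhibitor of new vessel growth and an activator of latent TGF-beta, rose 1.84-fold, and *Col8a1* and *Col20a1* also rose, while *Postn* and the laminin chains *Lama3* and *Lamb3* fell. These were 3 members higher and 3 lower of 56 tested, beside 6.62% of all 13612 tested genes called higher and 3.73% called lower. The members' shares were 5.36% in each direction, near those of all genes, and their median log2 fold change was 0.07 beside -0.02 for all tested genes. A call means an adjusted p under 0.05 in limma over all tested genes. Where groups are said not to overlap, the share of all tested genes without overlap was not counted, so this adds no support to a call.

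*Thbs1*, listed as ENSMUSG00000040152 on chromosome 2 from 117942357 to 117957614 in a build the table does not name, had 14597 and 12693 normalized read counts in sdAb#07.81 (48 h) and 7477 and 7295 in sdAb-Con (48 h). The groups did not overlap, and the 24 h libraries lay between them with 10475 and 10388. The log2 fold change was 0.88 (SE 0.112, adjusted p = 0.000175). It stayed between 0.78 and 0.98 and past the threshold in each of the 6 runs that left out 1 library. With no filter on the mean, the call of *Thbs1* was lost, as were those of the other members called between these groups.

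*Postn*, encoding periostin, a matricellular protein of collagen-rich stroma, had 56.3 and 52.5 normalized counts in sdAb#07.81 (48 h) and 133 and 102 in sdAb-Con (48 h). Each sdAb-Con library was above each sdAb#07.81 library, and the log2 fold change was -1.09 (SE 0.285, adjusted p = 0.0221). *Lama3*, an alpha chain of the laminin that anchors epithelial cells through hemidesmosomes, had 509 and 459 counts against 787 and 583 (log2 fold change -0.49, SE 0.153, adjusted p = 0.0496). *Lamb3*, a beta chain of epithelial laminin, had 2706 and 2763 against 4143 and 3290 (log2 fold change -0.43, SE 0.128, adjusted p = 0.0383). For both chains the 2 groups did not overlap. The chains of the widespread laminins were not called. *Lamc1* had 11353 and 9212 counts in sdAb#07.81 (48 h) against 8364 and 8780, *Lamb1* had 16081 and 13805 against 16414 and 16262, and *Lama5* had 14495 and 11754 against 11726 and 12384. Of these 3, the groups overlapped for *Lama5* and not for *Lamb1* or *Lamc1*. Within a library, which removes depth, the reads of *Lamb3* came to 0.168 and 0.2001 of those of *Lamb1* in sdAb#07.81 (48 h) and to 0.252 and 0.202 in sdAb-Con (48 h), beside 0.0953 and 0.0951 at 24 h.

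*Col8a1*, a short-chain collagen of vessel walls and of the basement membrane under the corneal endothelium, had 7469 and 7063 counts in sdAb#07.81 (48 h) against 5716 and 5142 in sdAb-Con (48 h), without overlap. Its log2 fold change was 0.42 (SE 0.114, adjusted p = 0.0255). *Col20a1*, a little-studied collagen of the type that sits on fibrils, had 180.4 and 133 counts against 51.7 and 88.6, again without overlap (log2 fold change 1.18, SE 0.356, adjusted p = 0.0415). In addition, *Tnc*, encoding tenascin C, had 452 and 348 counts against 485 and 558, and its log2 fold change of -0.39 (SE 0.148) did not pass the test (adjusted p = 0.0949).

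No integrin gene was called between the 48 h groups, beside 6.62% of all tested genes called higher and 3.73% called lower. The 17 integrin genes tested had log2 fold changes between -0.64 for *Itgb7* and 0.98 for *Itgb8*, and the 9 alpha subunits lay between -0.14 and 0.38. None of the 8 fibrillar collagens tested was called either, beside the same shares. *Col11a2* had 89.7 and 89.7 counts against 48.8 and 57.3, without overlap, and its log2 fold change of 0.75 (SE 0.284, adjusted p = 0.0965) was called when the 2 groups were fitted alone and without sdAb#07.81 (24 h) library 2. *Col1a1* was at 215 and 152 normalized counts in sdAb#07.81 (48 h) against 179 and 175 in sdAb-Con (48 h). The call of each of the 5 genes other than *Thbs1* was lost when single libraries were left out. *Postn* and *Col20a1* lost theirs without any 1 of the 4 libraries at 48 h, *Lama3* and *Lamb3* without either sdAb#07.81 (48 h) library or without sdAb-Con (48 h) library 1, and *Col8a1* without sdAb#07.81 (48 h) library 1 or either sdAb-Con (48 h) library. Upper quartile scaling also ended the calls of *Lama3* (-0.43) and *Lamb3* (-0.37), which left 3 members higher and 1 lower, and voom weights that of *Lama3* (-0.49). The directions of the 5 genes did not change when 1 library was left out, with log2 fold changes of -1.28 to -0.90 for *Postn*, -0.70 to -0.27 for *Lama3*, -0.60 to -0.27 for *Lamb3*, 0.34 to 0.49 for *Col8a1* and 0.80 to 1.57 for *Col20a1*.

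**Figure D2:**
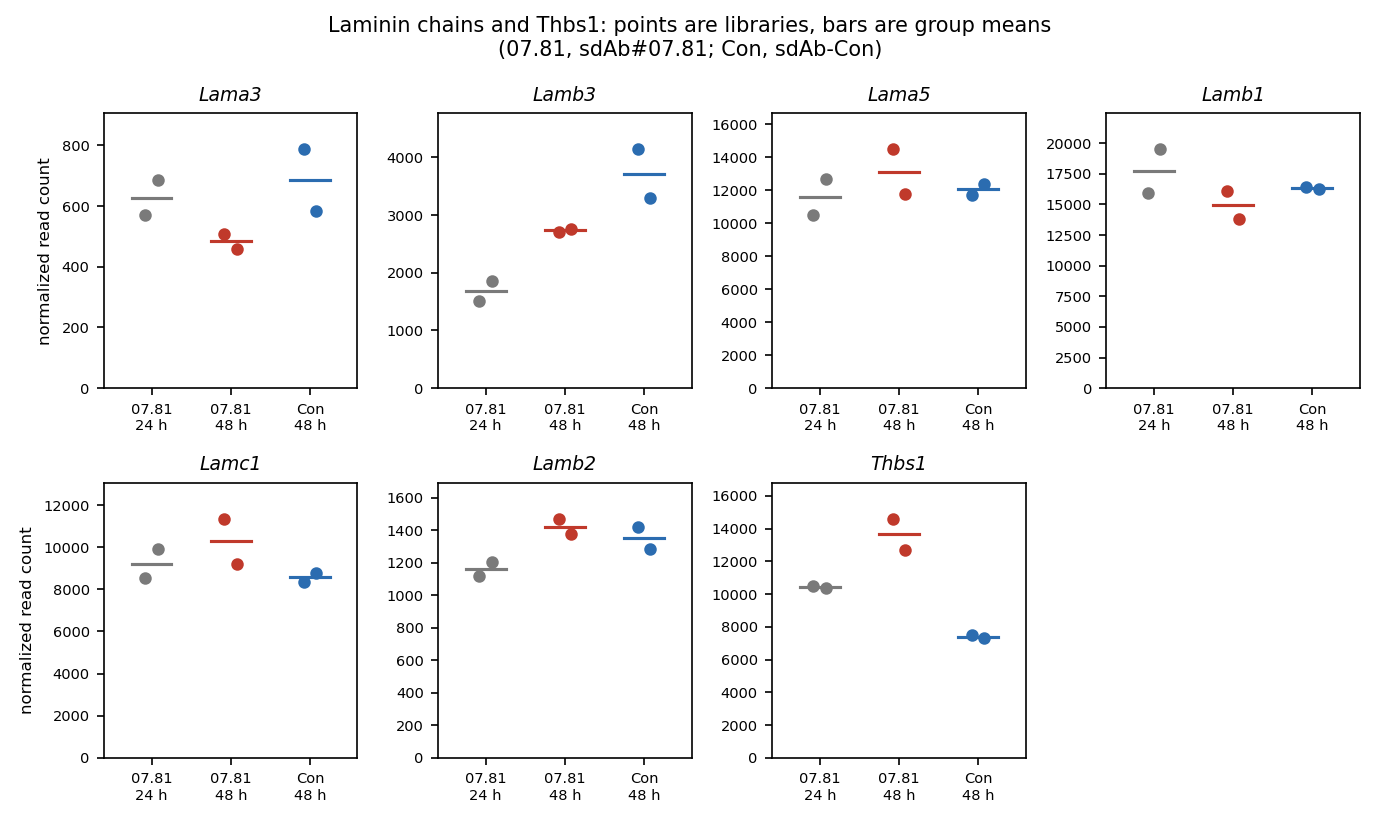
Normalized read counts of 6 laminin chains and *Thbs1* in sdAb#07.81 (24 h), sdAb#07.81 (48 h) and sdAb-Con (48 h), each gene on its own axis from 0, with 1 point a library and a bar at the group mean. *Lamb3* steps up from the 24 h group through sdAb#07.81 (48 h) to sdAb-Con (48 h), and *Thbs1* is highest in sdAb#07.81 (48 h) at 14597 and 12693.

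Transcript length moved with the fold changes. Across the 13473 tested genes with a length, the log2 fold change between the 48 h groups and transcript length had a Spearman's rho of 0.458, a description over genes, which are not independent. The median log2 fold change was 0.21 in the longest genes (from 4.63 kb) and -0.23 in an equal number of the shortest. The rho was -0.143 between sdAb#07.81 at 48 h and at 24 h, with medians of -0.077 and 0.15, and -0.345 for sdAb-Con (48 h) against 24 h, with medians of -0.30 and 0.33. The members are long genes, with a median of 5.78 kb beside 3.16 kb for all, and 51 of the 56 were above the median of all. All 6 members called were among the longest genes, namely *Thbs1* (5848 bases), *Col8a1* (5108 bases) and *Col20a1* (5012 bases), which rose, and *Lama3* (10548 bases), *Lamb3* (4867 bases) and *Postn* (5223 bases), which fell. With the trend of length, GC content and mean count taken out, the log2 fold change was 0.83 for *Thbs1*, -1.52 for *Postn* and -0.77 for *Lama3*, each still called, and *Tnc* became called at -0.54, while *Lamb3* (-0.43), *Col8a1* (0.33) and *Col20a1* (1.1, beside 1.18 before) were no longer called. What the length trend contributes to the members' values was not tested beyond this.

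**Figure D3:**
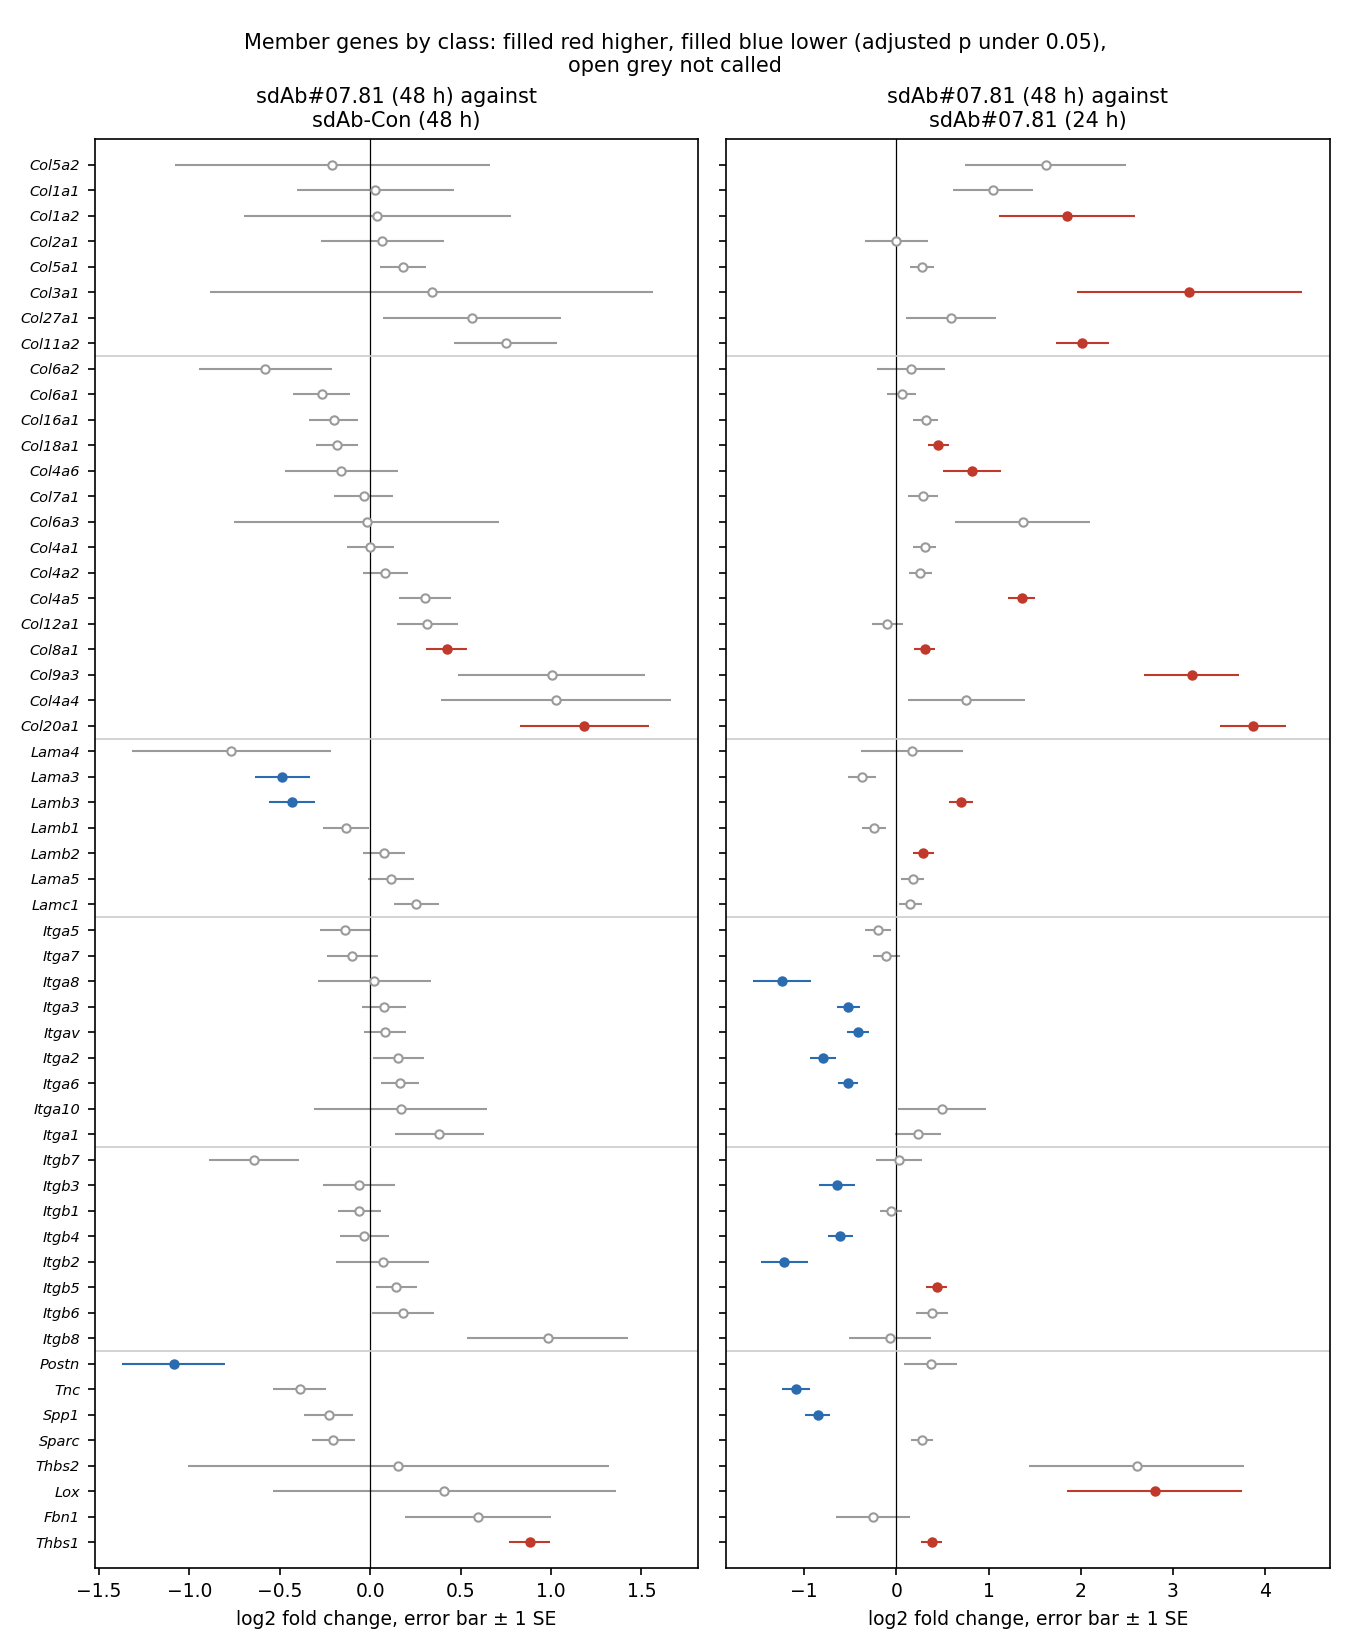
Log2 fold changes (points) with 1 standard error on each side (bars) of 55 of the 56 tested members, for sdAb#07.81 (48 h) against sdAb-Con (48 h) on the left and against sdAb#07.81 (24 h) on the right, with horizontal lines between the 6 classes and different ranges on the 2 axes. On the left 6 genes are filled, meaning called, and on the right 24, with the integrin alpha subunits that were called all on the lower side.

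The comparison of sdAb#07.81 (48 h) with sdAb#07.81 (24 h) asks how expression changed between the times under the same antibody. Here 15 members were higher and 10 lower at 48 h, beside 21.8% of all tested genes called higher and 22% called lower. The members' shares were 26.8% and 17.9%. By class, 9 of 23 collagens and 3 of 8 laminins were higher with none lower. Of the integrins, 5 of 9 alpha and 3 of 8 beta subunits were lower and only *Itgb5* was higher. Of 8 matricellular and crosslinking genes, 2 were higher and 2 lower. A difference between classes was not tested, and several of these calls were lost when 1 library was left out. Of the 15 higher members, *Col1a2*, *Col3a1* and *Lox* rested on sdAb#07.81 (24 h) library 2. Without that library the log2 fold change was -0.27 for *Col1a2*, -0.43 for *Col3a1* and 0.20 for *Lox*, none of them called, in place of 1.85, 3.18 and 2.80, and 16 members were higher and 8 lower.

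Among integrins, the laminin receptor subunit *Itga6* had 6566 and 6910 normalized counts at 24 h and 4811 and 4565 at 48 h (log2 fold change -0.52, SE 0.106, adjusted p = 0.000629). *Itga3* had 19099 and 20707 against 14782 and 13017 (log2 fold change -0.52, SE 0.122). *Itga2*, which pairs with *Itgb1* to bind collagen, had 2385 and 3317 against 1707 and 1545 (log2 fold change -0.79, SE 0.142). In none of these 3 did the groups overlap. *Itgb4*, the partner of *Itga6* in hemidesmosomes, had 1444 and 1927 against 1143 and 1046 (log2 fold change -0.61, SE 0.136). *Itgav* fell from 6063 and 6839 to 5270 and 4426 (log2 fold change -0.41, SE 0.116), and its partner *Itgb3* from 156 and 172 to 99.1 and 110.5 (log2 fold change -0.64, SE 0.2). *Itgb1*, which many of these subunits pair with, had 25283 and 27580 counts at 24 h and 25859 and 24988 at 48 h and was not called (log2 fold change -0.05), though it was called at -0.26 with the trend of length, GC content and mean count taken out.

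*Itga8*, a subunit that binds nephronectin, had 95.5 and 178 counts at 24 h and 74 and 40.5 at 48 h (log2 fold change -1.24, SE 0.313). *Itgb2*, the beta chain of leukocyte integrins, had 149.7 and 293 against 90.7 and 88.6 (log2 fold change -1.21, SE 0.256). In both, library 2 of the 24 h group was the highest of the 6, and without it their log2 fold changes were -0.80 and -0.74. Among immune markers, *Ptprc* stayed at or below 4.37 normalized counts in each library, while *Cd68*, a lysosomal protein of macrophages, was higher at 48 h, with 270 and 237 counts at 24 h, 501 and 652 in sdAb#07.81 (48 h), and 1041 and 646 in sdAb-Con (48 h) (log2 fold change 1.17 between the sdAb#07.81 groups, SE 0.187). Its part in the values of *Itgb2* was not tested. *Itgb5*, another partner of *Itgav*, rose from 2190 and 2530 to 3246 and 3132 (log2 fold change 0.44, SE 0.112), so the *Itgav* partners *Itgb3* and *Itgb5* were called in opposite directions. The calls of *Itga2*, *Itga3*, *Itga6*, *Itgb2* and *Itgb4* held in each run that left out 1 library, though the reads of *Itga3* had more than 1 solution and were settled by taking the libraries of a group within 1.5-fold, which bounds its spread. In contrast, those of *Itga8*, *Itgav*, *Itgb3* and *Itgb5* were lost in 1 or 2 of the 6 runs. *Itga8* and *Itgav* lost theirs without sdAb#07.81 (24 h) library 2 or sdAb#07.81 (48 h) library 2, *Itgb3* without sdAb#07.81 (24 h) library 2 or sdAb#07.81 (48 h) library 1, and *Itgb5* without sdAb#07.81 (24 h) library 1.

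**Figure D4:**
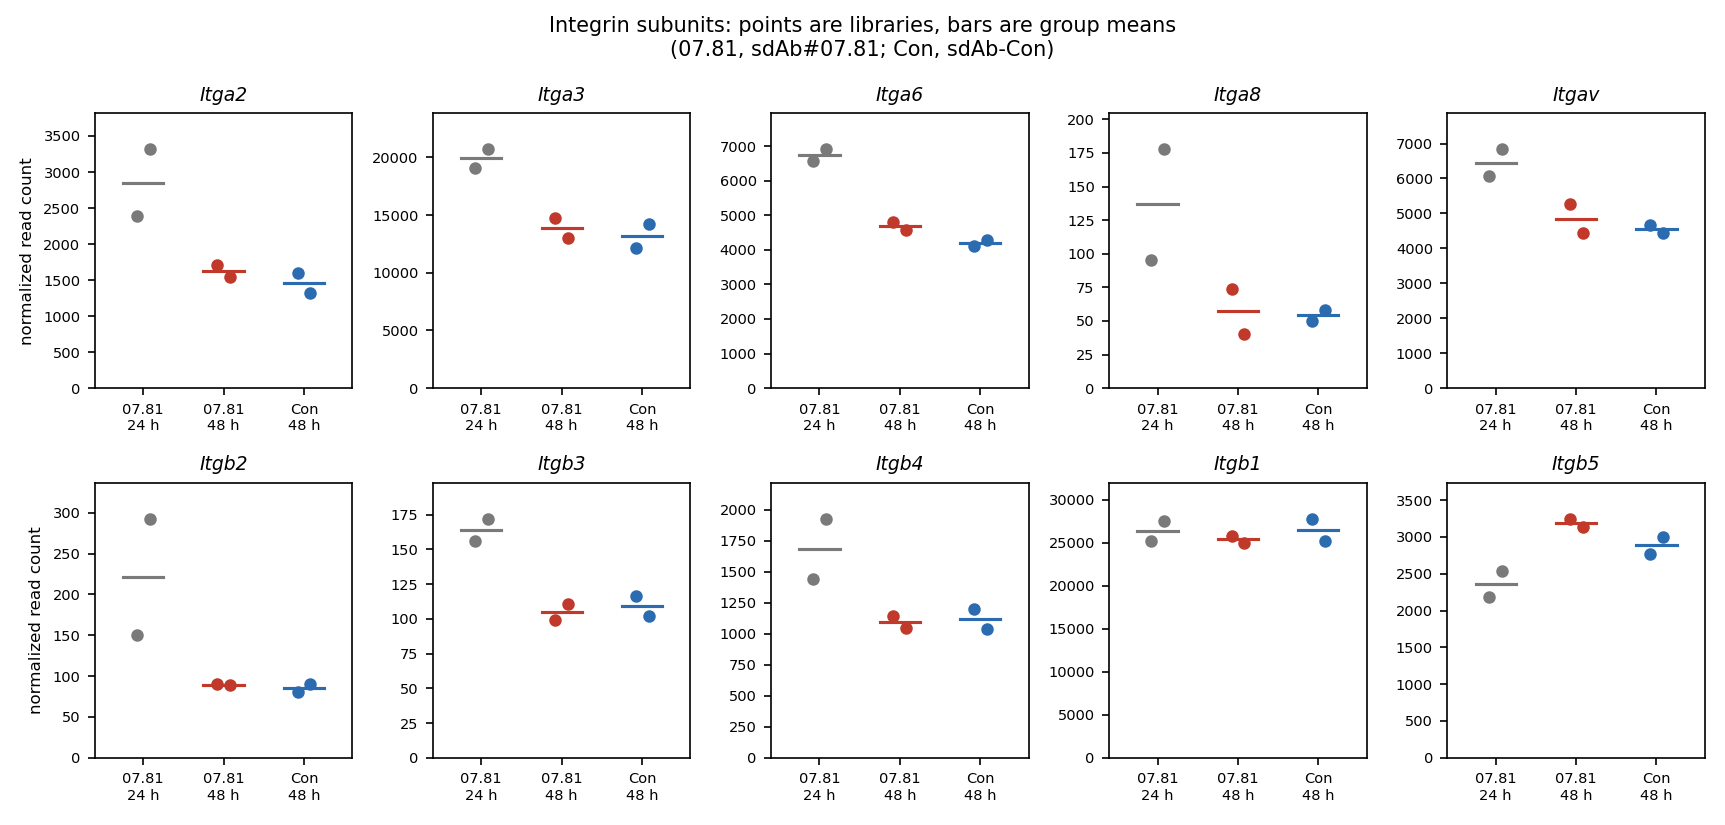
Normalized read counts of 10 integrin subunits in the 3 groups, each gene on its own axis from 0, with 1 point a library and a bar at the group mean. For 8 of them the 24 h libraries sit above both 48 h groups, *Itgb1* is level at about the same height in all 3 groups, and *Itgb5* is lowest at 24 h with 2190 and 2530.

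The 9 collagens called were higher at 48 h, and the other 14 tested were not called. *Col4a5*, an alpha chain of the collagen IV network that is mutated in Alport syndrome, had 749 and 1112 counts at 24 h and 2359 and 2331 at 48 h (log2 fold change 1.36, SE 0.144, adjusted p = 6.91e-07). Its neighbour *Col4a6* had 21.1 and 31.6 against 42.8 and 50.3 (log2 fold change 0.82, SE 0.314), a call lost in 5 of 6 runs that left out 1 library. *Col18a1*, the basement membrane collagen whose fragment is endostatin, had 4471 and 5233 against 7098 and 6213 (log2 fold change 0.46, SE 0.116). *Col8a1* had 5446 and 6302 against 7469 and 7063 (log2 fold change 0.31, SE 0.114). In all of these the groups did not overlap. The call of *Col18a1* was lost without sdAb#07.81 (24 h) library 1, and that of *Col8a1* without that library or either sdAb#07.81 (48 h) library. The call of *Col18a1* was lost without sdAb#07.81 (24 h) library 1, and that of *Col8a1* without the same library or either sdAb#07.81 (48 h) library. Larger differences were measured in 3 sparsely read collagens. *Col20a1* had 7 and 15 reads at 24 h, or 6.43 and 14.3 normalized counts, and 180.4 and 133 normalized counts at 48 h (log2 fold change 3.87, SE 0.356, adjusted p = 1.25e-07). *Col9a3*, a cartilage collagen, had 4 and 2 reads at 24 h and 29.2 and 37.2 normalized counts at 48 h (log2 fold change 3.20, SE 0.518). Its mean at 24 h was 2.79, so it was tested only through its 48 h counts, and its call is no separate support. *Col11a2*, another collagen of cartilage, had 23.9 and 19.1 against 89.7 and 89.7 (log2 fold change 2.02, SE 0.284). All 3 lay higher in sdAb-Con (48 h) than at 24 h as well, with 51.7 and 88.6 for *Col20a1*, 22 and 11.5 for *Col9a3* and 48.8 and 57.3 for *Col11a2*.

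**Figure D5:**
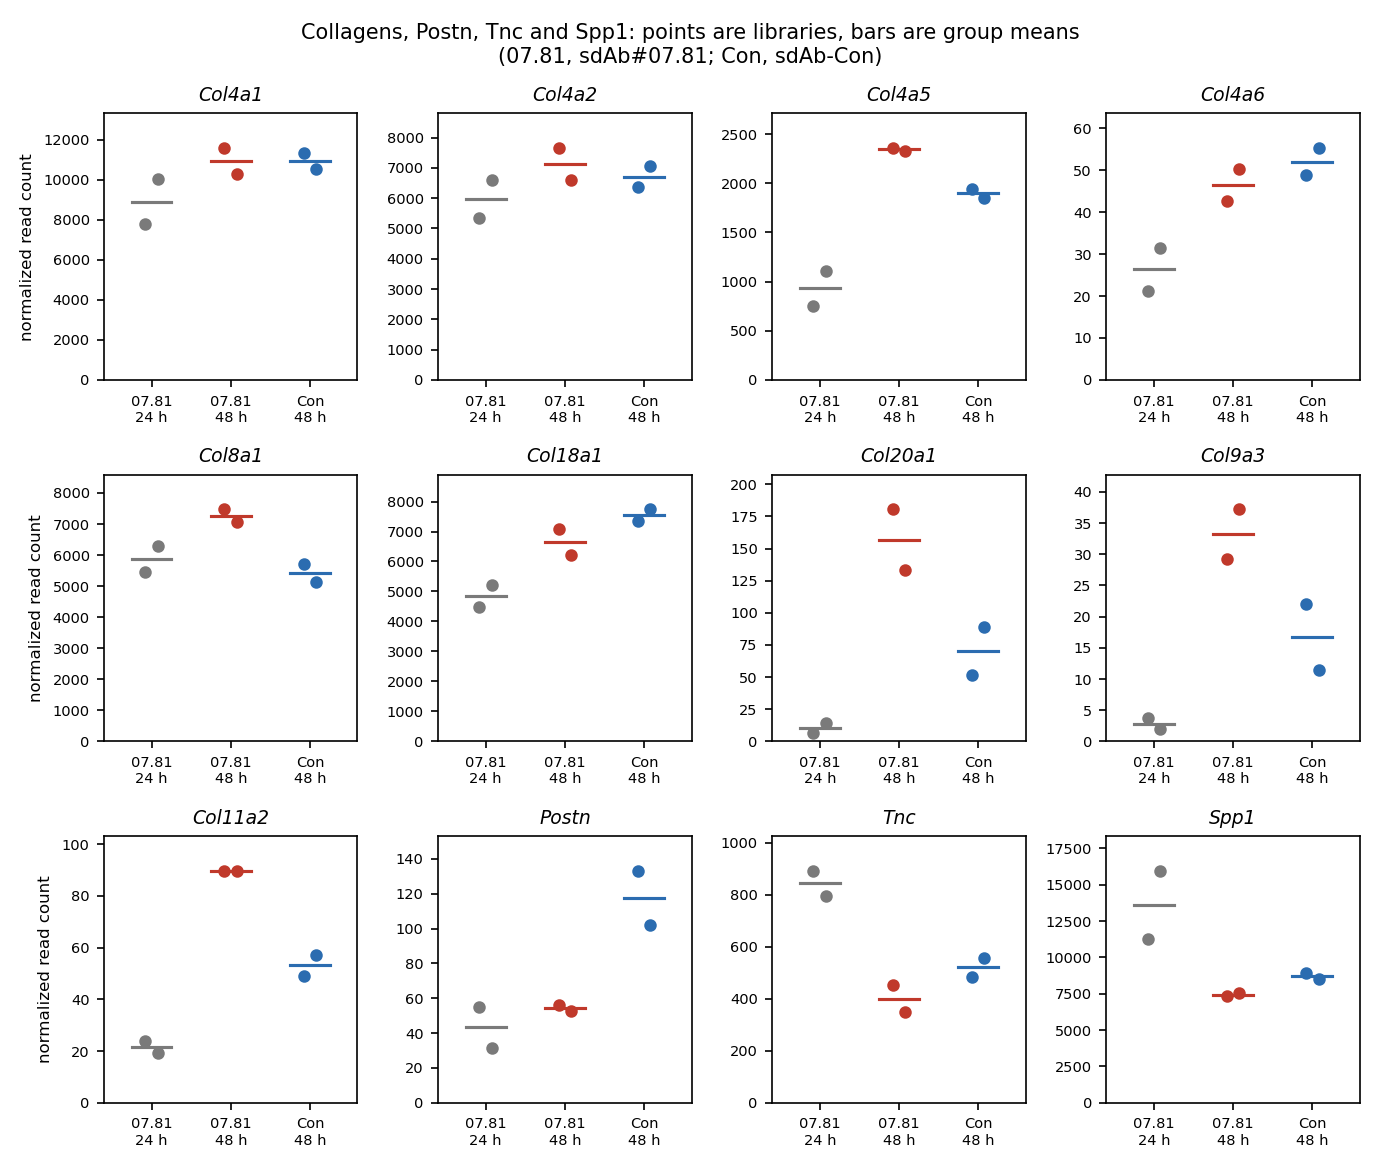
Normalized read counts of 9 collagens, *Postn*, *Tnc* and *Spp1* in the 3 groups, each gene on its own axis from 0, with 1 point a library and a bar at the group mean. *Col20a1*, *Col9a3* and *Col11a2* are near the bottom of their axes at 24 h and highest in sdAb#07.81 (48 h), *Tnc* and *Spp1* are highest at 24 h, and *Postn* is highest in sdAb-Con (48 h) with 133 and 102.

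Of the laminins, *Lamb3* rose from 1519 and 1855 counts at 24 h to 2706 and 2763 at 48 h (log2 fold change 0.70, SE 0.128, adjusted p = 0.000228). *Lama3* did not follow, with 571 and 685 counts at 24 h and 509 and 459 at 48 h (log2 fold change -0.37, SE 0.153, adjusted p = 0.0568). The reads of *Lama3* came to 0.0544 and 0.054 of those of *Lama5* at 24 h, 0.0351 and 0.0391 in sdAb#07.81 (48 h), and 0.0671 and 0.0471 in sdAb-Con (48 h). *Lamb2* passed the test narrowly, at 1119 and 1205 against 1470 and 1374 (log2 fold change 0.29, SE 0.115, adjusted p = 0.048), and lost its call in all 6 runs that left out 1 library.

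Of the 8 matricellular and crosslinking genes tested, 25% were called higher and 25% lower, beside 21.8% and 22% of all tested genes. The higher ones were *Thbs1* and *Lox*, and *Lox*, with 39 and 0 reads at 24 h, rested on sdAb#07.81 (24 h) library 2. *Tnc* fell from 892 and 797 counts at 24 h to 452 and 348 at 48 h (log2 fold change -1.09, SE 0.148, adjusted p = 1.2e-05), and *Spp1* from 11270 and 15959 to 7361 and 7528 (log2 fold change -0.85, SE 0.136, adjusted p = 6.59e-05). Both falls held in each of the 6 runs that left out 1 library. *Thbs1* rose from 10475 and 10388 to 14597 and 12693 (log2 fold change 0.38, SE 0.112, adjusted p = 0.00986), a call lost in 3 of these runs, those without sdAb#07.81 (24 h) library 1 or library 2 and without sdAb#07.81 (48 h) library 1. *Sparc*, which encodes osteonectin, a collagen-binding protein, had 3519 and 4161 counts against 4579 and 4720 and was not called (log2 fold change 0.28, SE 0.117, adjusted p = 0.0596).

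Other members gave no call in this comparison or between the 48 h groups. *Col6a1*, a chain of the microfibrillar type VI collagen, had 744 and 1109 counts at 24 h, 1052 and 849.8 in sdAb#07.81 (48 h), and 1147 and 1130 in sdAb-Con (48 h). *Col7a1*, the anchoring fibril collagen that ties the basement membrane to the dermis, had 914 and 1372, then 1590 and 1178, and then 1388 and 1418. For both genes the 24 h libraries differed from each other by more than the group means did. *Itga5*, the fibronectin receptor subunit, had 983 and 727 counts at 24 h, 762 and 714 in sdAb#07.81 (48 h), and 776 and 851 in sdAb-Con (48 h). *Itgb6*, an epithelial partner of *Itgav*, had 178 and 181, then 245 and 225, and then 225 and 191, with a log2 fold change of 0.39 against 24 h that did not pass the test (adjusted p = 0.0742). *Itgb8* had 17.5 and 22 counts at 24 h, 16.7 and 20.8 in sdAb#07.81 (48 h), and 9.58 and 8.34 in sdAb-Con (48 h), and its log2 fold change of 0.98 at 48 h did not pass the test (adjusted p = 0.161). *Fbn1*, encoding the microfibril protein fibrillin 1, stayed between 13.6 and 49.7 in the 6 libraries.

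As a share of all reads in a library, which does not depend on size factors, the integrin alpha subunits took 0.214% and 0.239% at 24 h, 0.171% and 0.150% in sdAb#07.81 (48 h), and 0.139% and 0.157% in sdAb-Con (48 h). Each 24 h library was above each 48 h library. The non-fibrillar collagens took 0.164% and 0.207% at 24 h, 0.254% and 0.223% in sdAb#07.81 (48 h), and 0.221% and 0.230% in sdAb-Con (48 h), again without overlap but in the other direction. Laminins (0.266% to 0.342%) and integrin beta subunits (0.176% to 0.198%) overlapped between the times. These shares are led by their most abundant members, and members are not replicates of a condition.

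The control antibody at 48 h was also set beside sdAb#07.81 at 24 h, a comparison in which antibody and time differ at once and which shares its libraries with the others. It is given because it shows where the members stood after 48 h without the anti-NUPR1 antibody. In sdAb-Con (48 h), 15 members were higher and 11 lower than in sdAb#07.81 (24 h), beside 25.5% and 25.6% of all tested genes. The integrin subunits on the lower side had log2 fold changes of -0.95 for *Itga2*, -0.59 for *Itga3*, -0.69 for *Itga6*, -1.26 for *Itga8*, -0.50 for *Itgav*, -1.28 for *Itgb2*, -0.58 for *Itgb3* and -0.58 for *Itgb4*, each called. *Itgb7*, a subunit known from lymphocytes, had 91.9 and 130.3 counts against 64.3 and 72.7 (log2 fold change 0.67, SE 0.248). *Thbs1* was lower (log2 fold change -0.50, SE 0.112) and *Postn* higher (log2 fold change 1.46, SE 0.285, with 133 and 102 counts against 55.1 and 31.6). *Lamb3* was 1.14 (SE 0.128) higher on the log2 scale. *Col16a1*, another collagen associated with fibrils, had 2607 and 2610 counts against 1553 and 2130 (log2 fold change 0.52, SE 0.134). *Sparc* was higher too (log2 fold change 0.48, SE 0.117), and *Col18a1* by 0.64 (SE 0.116). Of the calls named in this paragraph, several were lost in runs that left out 1 library. These were *Itgb3* without sdAb#07.81 (24 h) library 2 or sdAb-Con (48 h) library 2, *Itgb7* without sdAb#07.81 (24 h) library 1 or sdAb-Con (48 h) library 2, and *Col16a1* without sdAb#07.81 (24 h) library 1. With the trend of length, GC content and mean count taken out, *Itgav* (-0.20), *Itgb3* (-0.41), *Itgb7* (0.54) and *Sparc* (0.20) were no longer called. *Col1a2* and *Lox* were again called higher (1.81 and 2.39), calls that were also lost without either sdAb-Con (48 h) library, and were -0.31 and -0.22 without sdAb#07.81 (24 h) library 2, where *Col3a1* and *Thbs2* became lower, by -0.77 and -0.93, and were called.

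Genes that act on collagens were read from lists of other matrix genes. Of 13 tested genes for collagen processing and crosslinking, 0 were higher and 2 lower with sdAb#07.81 than with sdAb-Con at 48 h, beside 6.62% and 3.73% of all tested genes. Their median change on the log2 scale was -0.22 beside -0.02 for all tested genes. *Serpinh1*, the collagen chaperone HSP47, had 14414 and 14709 counts against 22922 and 16677 (log2 fold change -0.43, SE 0.134, adjusted p = 0.0498), and P4hb, a subunit of collagen prolyl hydroxylase, had 14000 and 14280 against 22098 and 17774 (log2 fold change -0.49, SE 0.122, adjusted p = 0.0176). Both had been lower still at 24 h, *Serpinh1* with 5593 and 6107 and P4hb with 9342 and 9847. Against 24 h, 3 of the 13 were higher and 3 lower, beside 21.8% and 22% of all tested genes, and *Loxl4*, a lysyl oxidase, fell from 2627 and 2622 to 1346 and 1387 (log2 fold change -0.94, SE 0.109). With sdAb-Con (48 h) set against 24 h, 4 were higher and 2 lower, beside 25.5% and 25.6%. The list's medians in these 2 comparisons were -0.15 and 0.15, beside 0.00 and 0.01 for all tested genes.

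Of the 4 tested basement membrane linkers, *Agrn*, encoding agrin, was called between the 48 h groups, with 12502 and 11964 counts in sdAb#07.81 against 8463 and 9250 (log2 fold change 0.47, SE 0.114, adjusted p = 0.0148), beside 6.62% and 3.73% of all tested genes called, and its 24 h libraries held 5256 and 6031. *Dag1*, encoding dystroglycan, fell from 5303 and 5459 at 24 h to 3748 and 3642 in sdAb#07.81 (48 h) (log2 fold change -0.54, SE 0.108). In each of the 2 comparisons with 24 h, 1 of the 4 linkers was higher and 1 lower, beside 21.8% and 22% and then 25.5% and 25.6% of all tested genes, and the list's medians were 0.29 between the 48 h groups and -0.14 and -0.34 against 24 h. Of 14 other matrix glycoproteins and proteoglycans, 0 were higher and 1 lower between the 48 h groups, beside 6.62% and 3.73% of all tested genes, namely *Fbln2*, encoding fibulin 2, with 3129 and 2823 against 4862 and 4801 (log2 fold change -0.70, SE 0.124, adjusted p = 0.00226). Between sdAb#07.81 (48 h) and 24 h, 1 was higher and 3 lower, beside 21.8% and 22%, the higher one being *Ccn1*, a matricellular gene, at 20738 and 17646 against 8009 and 6292. In sdAb-Con (48 h) against 24 h, 3 were higher and 2 lower, beside 25.5% and 25.6%. Among the higher was *Dcn* (log2 fold change 1.71, SE 0.697), which had 47.8 and only 2.87 counts in the 24 h libraries. The list's medians were -0.07, -0.05 and 0.03 in the 3 comparisons. *Fn1*, encoding fibronectin, could not be resolved into reads per library and has no value here.

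Of 17 tested genes of the integrin adhesion complex, 2 were higher and 0 lower with sdAb#07.81 than with sdAb-Con at 48 h, beside 6.62% and 3.73% of all tested genes. These were *Vcl*, encoding vinculin, with 6318 and 5866 counts against 4788 and 4652 (log2 fold change 0.37, SE 0.106, adjusted p = 0.0345), and *Tns3*, encoding tensin 3, with 5779 and 5032 against 4012 and 4412 (log2 fold change 0.36, SE 0.112, adjusted p = 0.0484). Against 24 h, 4 were higher and 3 lower in sdAb#07.81 (48 h), beside 21.8% and 22% of all tested genes. The higher ones included *Vcl* and *Ilk*, and *Fermt1*, an epithelial kindlin that activates integrins, fell from 961 and 1245 to 605 and 536 (log2 fold change -0.94, SE 0.138). In sdAb-Con (48 h) against 24 h, 3 were higher and 4 lower, beside 25.5% and 25.6%. The list's medians were 0.15, 0.20 and 0.05 in the 3 comparisons. No list was tested as a set, and the calls of list genes were not rerun without single libraries or with the length trend removed.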

How the data were processed

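RNA from 4T1 cells was sequenced as paired reads on a NovaSeq instrument. Per the submitters' processing notes, reads were trimmed with cutadapt 1.9.1, aligned with HISAT2 2.0.1 and counted with HTSeq 0.6.1, and the notes name the human build GRCh38.p14 although the gene identifiers are mouse Ensembl identifiers. Strand and multi-mapping settings of the counting are not given in the sources used here. The 2 tables hold, for each gene, a mean normalized count that the authors computed over 4 libraries (the deposited signal column), with the authors' own fold changes, standard errors and p-values, which were not used. No per-library counts were in the tables.

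The deposited mean is printed to 15 digits and equals the mean over 4 libraries of whole reads divided by a size factor, so the whole reads were solved for as an integer problem. Reads of 28695 of 28712 genes (99.94%) were recovered. Of these, 118 had more than 1 solution, settled by taking libraries of a pair within 1.5-fold (members *Itga3*, *Itgb1* and *Lamb1* among them), and 17 genes stayed unresolved. On simulated data 6446 of 6446 genes returned were right. A pair of libraries with equal reads in both tables (100% of 18866 low genes, at most 22.5% for any other pair) was taken as sdAb#07.81 (48 h), the group that both tables share. The remaining pairs were taken as the sdAb-Con group and the 24 h group by elimination, since the columns carry no sample names, and one table calls its control by a name that the labels lack. If that reading were wrong, the results with sdAb-Con would be those of another control.

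log2(normalized count + 1) was fitted by limma 3.58.1 (R 4.3.3) with an intensity trend over all 6 libraries, for 13612 genes with an authors' mean of at least 10 in both tables. Tests were two-sided with Benjamini-Hochberg adjustment over all tested genes and a threshold of 0.05. No negative binomial count model was fitted, and limma's voom weights on the recovered reads were an alternative. In simulated data for the comparison of sdAb#07.81 (48 h) with sdAb-Con (48 h), 80 of 100 genes changed by 1 and 93 of 100 changed by 1.5 on the log2 scale were called, with 4 of 13744 unchanged genes. The simulated counts were negative binomial with a spread set by hand, without a length trend or an outlying library. These shares therefore need not hold for the real libraries. Transcript lengths and GC content came from GENCODE M21 (matched for 99.0% of tested genes), promoter windows from RefSeq GRCm38.p6, and gene coordinates from the tables, which name no build. The named members were the genes called in a comparison, each class's most abundant genes, and partners of these. Members and lists were chosen with earlier results of these data known. Alternatives were other pseudocounts, filters, scalings and weights, a fit of the 2 groups alone, removal of the trend of length, GC content and mean count, and leaving out each library. One member is counted but not reported here by name.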

Additional observations from a re-analysis of the deposited data

How the results depend on the processing

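Between the 2 groups at 48 h, 1409 genes were called, 605 of them with at least a 1.5-fold change. The count was 7 with no filter on the mean (4600 at an unadjusted p under 0.05), 2148 when they were fitted alone and 416 with the trend of length, GC content and mean count taken out, and it lay between 180 and 2124 when 1 library was left out, lowest without sdAb#07.81 (48 h) library 1 and at 494 and 366 without sdAb-Con (48 h) library 1 and library 2. Of the 6 members called, 3 changed by at least 1.5-fold, 0 were called with no filter (limma, 11 at an unadjusted p under 0.05), and 1 to 7 were called with a library left out (1 without sdAb#07.81 (48 h) library 1 or sdAb-Con (48 h) library 1, 2 without sdAb#07.81 (48 h) library 2 and 3 without sdAb-Con (48 h) library 2). With no filter, many more genes of few reads were tested and shared the fitted trend. Upper quartile scaling called 1208 genes higher and 300 lower, or 80.1% higher in place of 64.0%, and between sdAb-Con (48 h) and 24 h it called 43.0% higher in place of 49.9%.

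Between sdAb#07.81 (48 h) and 24 h, 5970 genes were called, 3632 with at least a 1.5-fold change, and 4395 to 5747 with a library left out. Of the 25 members called, 16 changed by at least 1.5-fold, 16 were called among genes with a mean of at least 100, and 17 to 25 with a library left out. Between sdAb-Con (48 h) and 24 h the counts were 6963, 4430 and 5122 to 6855, and 26 members, or 20 to 29 with a library left out. Over the settings under which each gene was tested, the 1.5-fold minimum aside (genes with a lower mean have no value at a mean of at least 100), 13 of the 25 calls and 17 of the 26 calls held, and between the 48 h groups 0 of 6 did, since *Thbs1* lost its call with no filter.

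Directions were followed for members called in a comparison under at least 1 setting, and they reversed in 28 cases, with none among the 8 such members between the 48 h groups. In sdAb-Con (48 h) against 24 h, removal of the trend gave 0.051 for *Col12a1* and -0.30 for *Itgb1*, and upper quartile scaling gave -0.066 for *Itgb1* and -0.0093 for *Lama5*. The other reversals came from leaving out 1 library, 16 of them sdAb#07.81 (24 h) library 2, 6 library 1 of that group and 2 sdAb-Con (48 h) library 1. For sdAb#07.81 (48 h) against 24 h the values ranged from -0.12 to 2.21 for *Col1a1*, -0.27 to 3.96 for *Col1a2*, -0.43 to 6.75 for *Col3a1*, -0.69 to 3.91 for *Col5a2*, -0.45 to 3.17 for *Col6a3*, -0.0066 to 0.58 for *Col7a1*, -0.42 to 0.019 for *Itga5*, -0.12 to 0.0038 for *Itgb1*, -0.023 to 0.76 for *Postn* and -0.77 to 5.96 for *Thbs2*. For sdAb-Con (48 h) against 24 h they ranged from -0.16 to 2.18 for *Col1a1*, -0.31 to 3.92 for *Col1a2*, -0.77 to 6.41 for *Col3a1*, -0.012 to 0.19 for *Col5a1*, -0.48 to 4.12 for *Col5a2*, -0.43 to 3.19 for *Col6a3*, -0.063 to 0.077 for *Itgb1*, -0.098 to 0.33 for *Lama3*, -0.079 to 0.19 for *Lama5*, -0.26 to 0.028 for *Lamb1*, -0.22 to 4.97 for *Lox* and -0.93 to 5.80 for *Thbs2*. The cause was not tested. A group left with 1 library was assumed to vary like the others. No paired analysis was possible because the columns carry no replicate numbers. With 2 libraries a group, members under 25 normalized counts rest on few reads.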
